A study of Mus musculus with 3 samples.

Results

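NRF2 is a transcription factor that switches on genes against oxidants and reactive chemicals, and 10 of the genes under its known control were followed here in NIH3T3 cells that overexpressed YAP. They and the wider lists below were chosen by name with earlier results of these data known, so a count among them is a description and no test. Every probe set annotated to 1 of the 10 genes alone was taken. The platform annotation gave 21 such probe sets for 9 of the 10 genes, out of 18193 genes and 45037 probe sets in all. G6pdx, which encodes the first enzyme of the pentose phosphate pathway, was not analysed here because no probe set carried its name. RNA came from 3 kinds of NIH3T3 cells, an immortalized line of embryonic mouse fibroblasts labelled as NIH/Swiss in strain: cells overexpressing mouse mtYAP (Yap S112A), cells overexpressing wild-type mouse YAP, and control cells labelled as untransduced. In mtYAP the serine at position 112, which the LATS kinases of the Hippo pathway phosphorylate, is replaced by alanine. All were grown in medium with 10% calf serum. The YAP proteins were delivered by retrovirus and infected cells were selected with puromycin, so both lines are populations of infected cells that had been through selection, and the label of the control cells gives them neither step. The study's methods also describe a virus with no insert, so label and methods leave it unclear whether the control cells were infected and selected. If they were not, effects of those steps cannot be told apart from those of YAP in a difference from control. The arrays were run to follow growth at confluence, but the density of the cells at harvest is not given. Each condition was hybridized once to an Affymetrix array. With 1 array per condition there is no replicate spread and no test, and every difference is one between single arrays.

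Levels are log2 values after robust multiarray analysis (RMA), so a difference of 1 is 2-fold and one of 0.5 is 1.41-fold. A level of 6 or more was taken as clearly measured. All 9 genes reached it as the mean of their probe sets on at least 1 array, 8 of them on all 3 arrays and Nqo1 only through the YAP array. The array medians were 4.57 in mtYAP, 4.56 in YAP and 4.60 in control. All 9 fibroblast markers lay above 6 on every array (the lowest at 7.07 in mtYAP, 8.59 in YAP and 9.685 in control), and none of 6 embryonic stem cell, 5 epithelial, 4 blood cell and 4 endothelial markers reached it on any array. The fibroblast markers were nevertheless lower in mtYAP than in control in 9 of 9 cases, by a median of −0.785 and a range of −2.615 (Pdgfrb) to −0.16 (Vim), with 4 below −1, and in YAP in 7 of 9 cases, with a median of −0.36 and a range of −1.095 to 0.72. The decreases given for mtYAP stand beside this shift, and its part in them was not tested. The stem cell markers matter because a description field of the control array speaks of embryonic stem cells, and their highest level there was 4.13. Yap1 itself stood at 7.89 in mtYAP, 8.06 in YAP and 8.57 in control. The sources used here do not say where its probe sets lie relative to the introduced coding sequence, so they do not check the labels. Both YAP lines are set against the same control array, so any peculiarity of that array enters both differences. In RNA from whole cultures, fewer expressing cells and less RNA per cell cannot be told apart.

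In resting cells NRF2 (Nfe2l2) is held by KEAP1, which hands it to a CUL3 ubiquitin ligase for destruction. Oxidants and electrophiles loosen that hold, and NRF2 then pairs with a small MAF protein on the antioxidant response element, a short DNA motif in the control regions of its targets. The targets fall into enzymes that detoxify quinones and haem, the thioredoxin system that repairs oxidized proteins, and pumps that export conjugated toxins. They also include enzymes that make NADPH, the reducing agent that the detoxifying enzymes and the thioredoxin system consume. In proliferating cells the same NADPH feeds lipid and nucleotide synthesis, and the pentose phosphate pathway also supplies the ribose of nucleotides.

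The promoter windows of the members, from 250 bases before to 50 bases after each annotated start, were taken from RefSeq (GRCm38.p6). They covered 8 of the 10 genes in 12 windows, with Txnrd1, Pgd and Me1 having more than 1 start. Hmox1 and Abcc1 had no entry. The core of the antioxidant response element, TGACNNNGC, was searched on both strands and occurred in 5 of the 12 windows, those of Srxn1, G6pdx and 1 start each of Txnrd1, Pgd and Me1, where 12.4% of all 32851 windows in the table hold it. The AP-1 site TGACTCA, which can overlap that core, occurred in 2 windows (Srxn1 and Me1), against 5.2% of all windows. The E-box CACGTG occurred in none (7.15% of all windows) and the TEAD site GGAATG in 1, the second start of Me1 (14.7%). These matches describe letters in a window and not binding. The windows of 4 members with a match are printed because their levels went different ways: those of Txnrd1 and Me1 stood above control in both YAP lines, and those of Srxn1 and Pgd stood lowest in mtYAP. Capitals mark the element core and AP-1 sites, and each run reads 5′ to 3′ along the gene's strand.
Txnrd1 second start, chr10:82858956-82859255, + strand: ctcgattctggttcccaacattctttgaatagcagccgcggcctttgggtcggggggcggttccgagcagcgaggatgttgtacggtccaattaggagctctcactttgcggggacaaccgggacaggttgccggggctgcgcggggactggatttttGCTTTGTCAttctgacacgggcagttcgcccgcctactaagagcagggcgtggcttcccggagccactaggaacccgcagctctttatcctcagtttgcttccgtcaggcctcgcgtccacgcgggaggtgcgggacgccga
Srxn1, chr2:152105274-152105573, + strand: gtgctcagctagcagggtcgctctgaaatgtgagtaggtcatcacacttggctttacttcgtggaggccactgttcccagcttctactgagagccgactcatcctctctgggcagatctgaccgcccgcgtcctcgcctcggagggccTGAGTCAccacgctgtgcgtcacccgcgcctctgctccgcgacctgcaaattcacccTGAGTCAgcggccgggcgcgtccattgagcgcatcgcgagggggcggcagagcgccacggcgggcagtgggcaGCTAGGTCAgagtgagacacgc
Pgd second start, chr4:149166033-149166332, - strand: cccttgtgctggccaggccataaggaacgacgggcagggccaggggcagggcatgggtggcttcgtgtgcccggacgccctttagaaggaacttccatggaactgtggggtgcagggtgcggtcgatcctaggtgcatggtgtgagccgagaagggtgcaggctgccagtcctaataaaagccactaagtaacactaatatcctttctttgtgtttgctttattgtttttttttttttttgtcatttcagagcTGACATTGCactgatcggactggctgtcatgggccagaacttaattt
Me1 first start, chr9:86695865-86696164, - strand: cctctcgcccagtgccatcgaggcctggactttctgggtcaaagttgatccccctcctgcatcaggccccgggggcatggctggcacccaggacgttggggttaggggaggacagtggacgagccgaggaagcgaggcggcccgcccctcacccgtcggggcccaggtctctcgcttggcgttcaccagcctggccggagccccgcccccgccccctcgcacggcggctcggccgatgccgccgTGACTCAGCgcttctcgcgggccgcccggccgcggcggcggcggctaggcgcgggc
In Txnrd1 the core lay 92 bases before the start, on the opposite strand. In Srxn1 the AP-1 sites lay 102 and 45 bases before the start and the element core 28 bases after it, all on the opposite strand. In Me1 the AP-1 site and the core began together at 6 bases before the start and overlapped, and in Pgd the core lay 3 bases after the second start. That start lies downstream of the first Pgd start, so this match falls within the gene and need not be a promoter element.

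**Figure D1:**
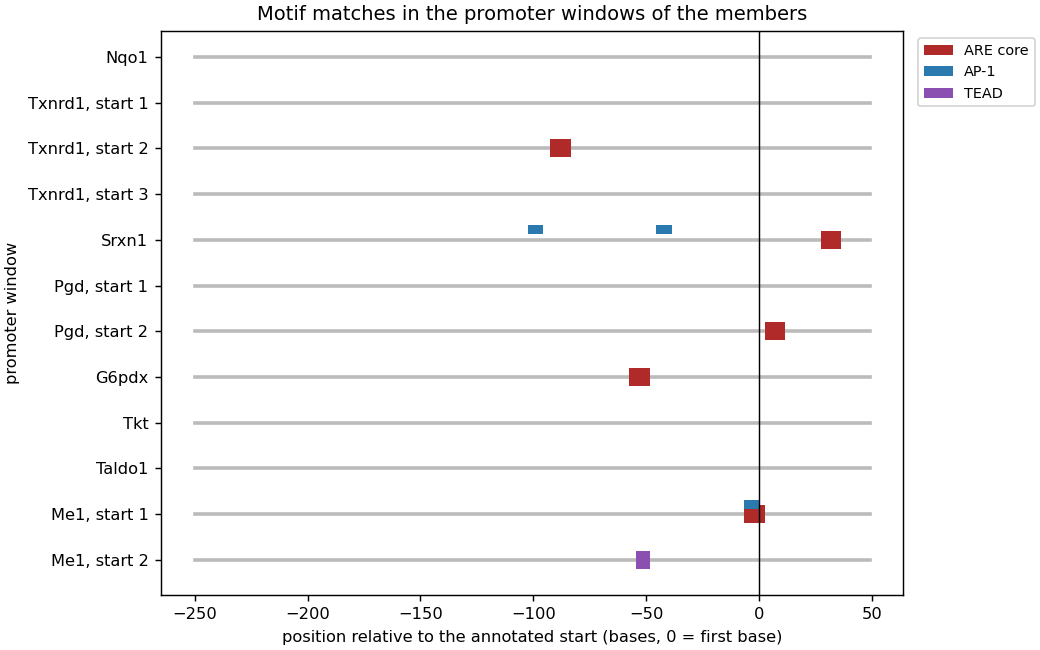
Positions of motif matches (coloured bars, length to scale) in the 12 RefSeq promoter windows of 8 members, in bases from the annotated start on the horizontal axis, with each window as a grey line. The core of the antioxidant response element (ARE, red) appears in 5 windows, AP-1 sites (blue) in 2 and a TEAD site (purple) in 1, and 6 windows hold none.

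The 9 measured genes did not move as a block. In mtYAP cells, 3 genes stood more than 0.5 above control (Abcc1, Txnrd1 and Me1), where 11.6% of all genes did, and 1 stood more than 0.5 below it (Pgd), where 11.5% did. In YAP cells, 4 genes stood more than 0.5 above control (Abcc1, Nqo1, Me1 and Taldo1), against 6.38% of all genes, and none stood more than 0.5 below, against 5.36%. Among the 7129 genes that reached a level of 6 on at least 1 array the upward shares were 20.6% in mtYAP and 11.7% in YAP, and the downward shares 20.6% and 8.49%. At the 2-fold limit the calls were Abcc1 upward in mtYAP (3.77% of all genes and 7.66% of those at a level of 6) and in YAP (1.36% and 2.72%), and Pgd downward in mtYAP (4.06% and 8.22%). No member passed −1 in YAP, where 1.26% of all genes and 2.3% of those at a level of 6 did. The median difference of the 9 genes was 0.12 in mtYAP and 0.47 in YAP, while over all genes it was 0.02 in mtYAP and −0.0033 in YAP.

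Abcc1 encodes MRP1, the pump that carries glutathione conjugates and oxidized glutathione out of the cell. Its first probe set read 8.44 in mtYAP, 8.57 in YAP and 7.18 in control, and its second 10.16, 10.16 and 9.06 in the same cells. Both probe sets placed the YAP lines above control and nearly level with each other. The mean difference from control was 1.18 (2.27-fold) in mtYAP and 1.245 (2.37-fold) in YAP, and mtYAP minus YAP was −0.065. Abcc1 was the only member past 2-fold in both lines.

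The thioredoxin system was represented by a reductase and a repair enzyme, which went apart. Txnrd1 encodes thioredoxin reductase 1, the cytosolic selenoenzyme that spends NADPH to keep thioredoxin reduced. Its brightest probe set read 10.93 in mtYAP, 10.44 in YAP and 9.78 in control, the next 7.17, 7.14 and 6.48, and the dimmest, of the _x_at kind, 6.06, 5.44 and 5.36. All 3 were highest in mtYAP and lowest in control. The mean difference was 0.85 (1.80-fold) in mtYAP, with single probe sets at 0.69 to 1.15, and 0.47 (1.38-fold) in YAP, with a range of 0.08 to 0.66. Taken by its brightest probe set alone, Txnrd1 passed 2-fold in mtYAP. Its distance between the YAP lines depended on the probe set, at 0.03 to 0.62 for mtYAP minus YAP.

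Srxn1 encodes sulfiredoxin, which rescues peroxiredoxins that have been inactivated by excess peroxide. Its brighter probe sets read 7.09 and 6.65 in mtYAP, 7.90 and 7.06 in YAP, and 7.83 and 7.39 in control. Each of these was lowest in mtYAP, at −0.74 from control (0.599-fold), and they differed on YAP, at 0.07 and −0.33. The other 2 probe sets stayed under 6 on all arrays, between 5.11 and 5.61, with mtYAP differences of 0.10 and −0.45. The mean over all 4 was −0.46 in mtYAP and −0.05 in YAP, so Srxn1 passes the limit of −0.5 in its brighter probe sets and not as the mean of all 4.

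Nqo1 and Hmox1 are the genes most often read as signs of NRF2 activity. Nqo1 encodes a quinone reductase that uses NADH or NADPH, and its single probe set read 5.07 in mtYAP, 6.10 in YAP and 5.18 in control. The YAP array alone was high, by 0.92 over control (1.89-fold), with mtYAP minus control at −0.11 and mtYAP minus YAP at −1.03. As 2 of the 3 values lie under 6, near the background, the size of this difference is uncertain. Hmox1 encodes haem oxygenase 1, which breaks haem down to biliverdin, iron and carbon monoxide. Its probe set read 6.89 in mtYAP, 6.72 in YAP and 6.99 in control, so control was highest, and the differences were −0.10 (0.933-fold) for mtYAP and −0.27 (0.829-fold) for YAP.

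**Figure D2:**
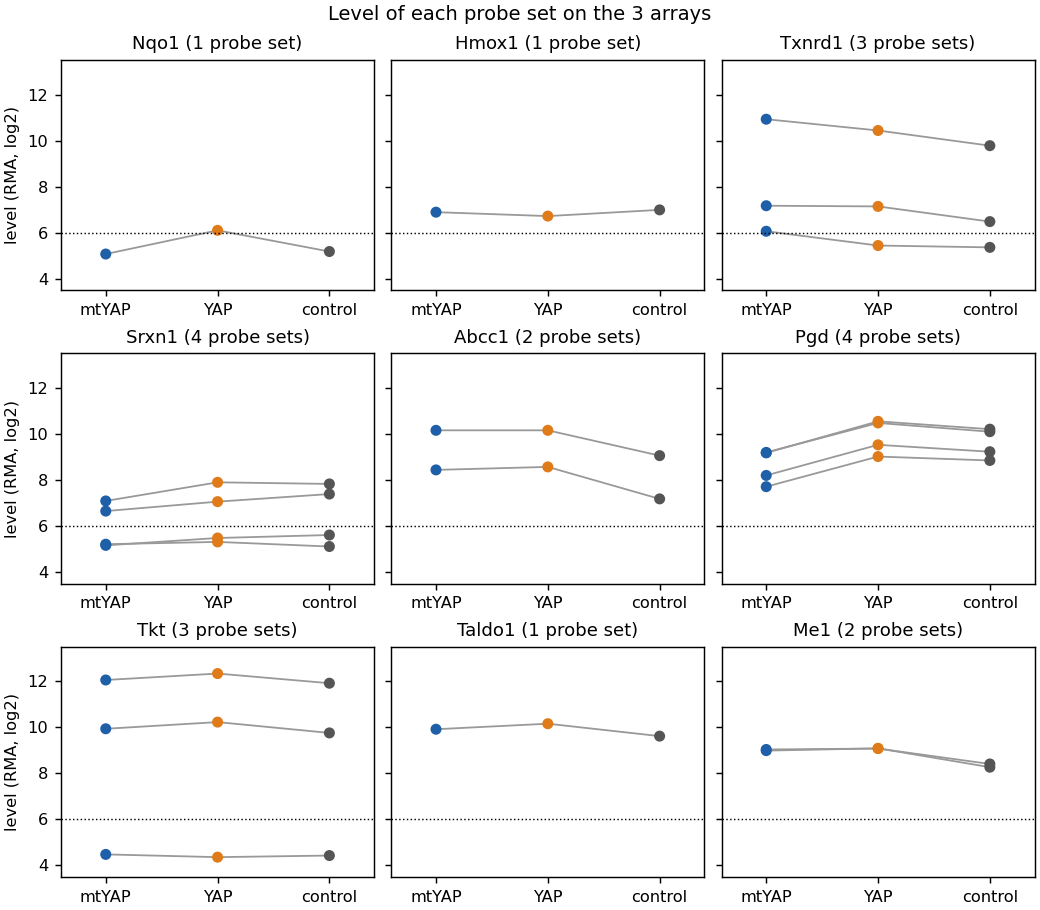
RMA level (log2, vertical axis) of each probe set of the 9 measured genes on the mtYAP (blue), YAP (orange) and control (grey) arrays, with grey lines joining the points of 1 probe set and a dotted line at a level of 6. The 4 Pgd probe sets are lowest in mtYAP (7.71 to 9.20), both Abcc1 probe sets are lowest in control (7.18 and 9.06), and Nqo1 reaches 6.10 only in YAP.

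The NADPH-making genes also differed from each other, and Pgd had the widest gap between the YAP lines of any member. Pgd encodes 6-phosphogluconate dehydrogenase, the second NADPH-producing enzyme of the pentose phosphate pathway. Its 4 probe sets read 7.71, 9.20, 9.18 and 8.20 in mtYAP, 9.02, 10.48, 10.55 and 9.53 in YAP, and 8.85, 10.10, 10.21 and 9.23 in control. In each of them mtYAP was the lowest and YAP the highest array. The mean difference was −1.025 in mtYAP (0.491-fold), with single probe sets at −1.14 to −0.90, and 0.30 in YAP (1.23-fold), at 0.17 to 0.38. Set directly against YAP, without the control array, mtYAP stood at −1.32 (0.400-fold), with probe sets at −1.37 to −1.28, where 1.42% of all genes lay below −1 in that comparison. The other member below −1 there was Nqo1, and none lay above 1, where 0.748% of all genes did. With the median of the probe sets taken on each array in place of the mean, the difference in mtYAP was −0.98, just inside 2-fold. All Pgd probe sets are of the _a_at or _x_at kind, which by the maker's naming may read several transcripts of the gene (_a_at) or cross-hybridize with related sequences (_x_at), so they are not independent measurements of a single transcript.

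Transketolase (Tkt) and transaldolase (Taldo1) run the reversible branch of the pathway, which links ribose to glycolysis without making NADPH. Tkt read 12.06 in mtYAP, 12.34 in YAP and 11.92 in control in its brightest probe set, and 9.94, 10.23 and 9.76 in the next. Both ran highest in YAP and lowest in control, by 0.42 and 0.47 in YAP and 0.14 and 0.18 in mtYAP, while the third probe set lay under 6 throughout, between 4.36 and 4.48. Taldo1 read 9.92 in mtYAP, 10.16 in YAP and 9.62 in control, differences of 0.30 (1.23-fold) and 0.54 (1.45-fold). So Taldo1 and the brighter Tkt probe sets shared an order over the arrays, YAP above mtYAP above control, with every step under 2-fold, and the mtYAP array placed Pgd differently.

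Me1 encodes cytosolic malic enzyme, which turns malate into pyruvate and makes NADPH outside the pentose phosphate pathway. Its probe sets read 9.04 and 8.99 in mtYAP, 9.08 and 9.09 in YAP, and 8.41 and 8.27 in control. Both lines were above control and within 0.10 of each other in both probe sets. The mean difference was 0.675 (1.60-fold) in mtYAP and 0.745 (1.68-fold) in YAP. Thus within NADPH-making enzymes, the mtYAP array was above control at Me1 and below it at Pgd.

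**Figure D3:**
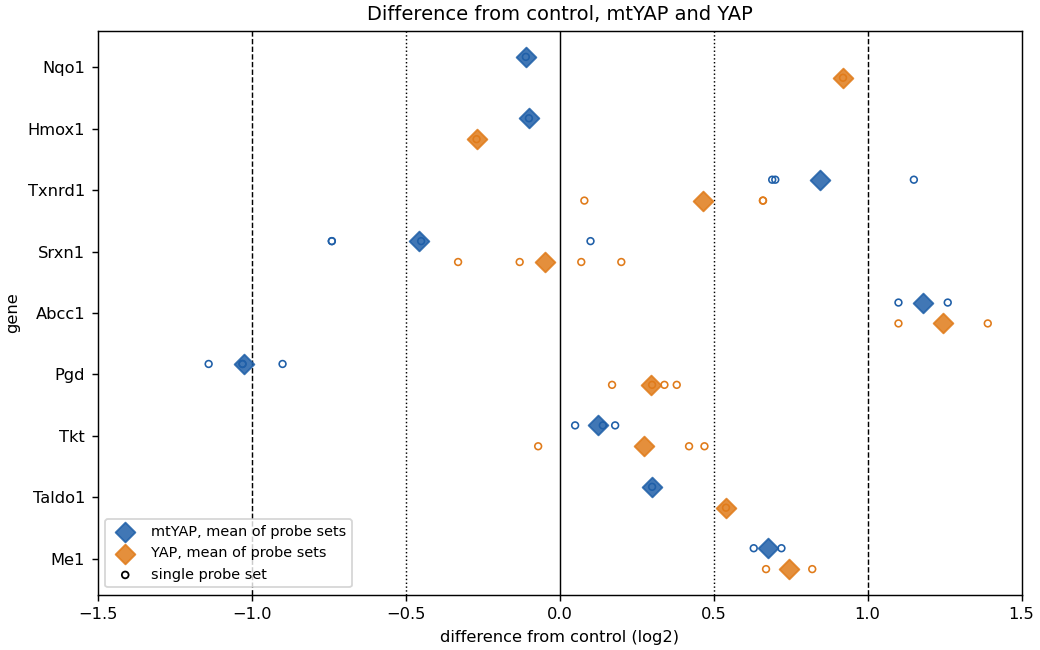
Difference from control (log2, horizontal axis) of the 9 measured genes in mtYAP (blue) and YAP (orange), with diamonds for the mean of a gene's probe sets and open circles for single probe sets. Dashed lines mark −1 and 1 and dotted lines −0.5 and 0.5. Abcc1 lies past 1 in both lines (1.18 and 1.245), and Pgd lies at −1.025 in mtYAP and 0.30 in YAP.

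Of 13 regulators of these genes, none lay past 2-fold in either line. Of all genes, 3.77% lay above 1 and 4.06% below −1 in mtYAP, and 1.36% and 1.26% in YAP. Among genes at a level of 6 on at least 1 array, these shares were 7.66% and 8.22% in mtYAP and 2.72% and 2.3% in YAP. A count of 0 of 13 is close to the shares of all genes, and 11 of the 13 reached a level of 6. The median of the 13 regulators was 0.355 in mtYAP and 0.13 in YAP. Nfe2l2 read 10.02 in mtYAP, 10.24 in YAP and 9.95 in control in its brighter probe set, differences of 0.07 and 0.29. Its other probe set stayed under 6 (3.70, 4.57 and 3.56 in the same order) and raises the mean difference of YAP to 0.65. Keap1 had mean levels of 6.26 in mtYAP, 6.77 in YAP and 6.59 in control, differences of −0.33 and 0.18. Bach1, a repressor that competes with NRF2 on the same element, had mean levels of 6.475 in mtYAP, 6.89 in YAP and 7.305 in control. The mean differences were −0.83 (0.563-fold) and −0.415 (0.750-fold). Its brighter probe set read 8.31 in mtYAP, 8.88 in YAP and 9.16 in control, differences of −0.85 and −0.28. The other stayed under 6 (4.64, 4.9 and 5.45 in the same order). Both Bach1 probe sets were highest in control and lowest in mtYAP. Cul3 stood 0.67 above control in mtYAP and 0.12 above it in YAP, as the mean of 5 probe sets. Its single probe sets ran at 0.45 to 0.86 in mtYAP, and in YAP they differed in sign, at −0.23 to 0.38. Nfe2l1, a relative of NRF2, stood 0.65 above control in mtYAP and 0.46 above it in YAP. The small MAF genes Maff, Mafg and Mafk differed by 0.82, 0.355 and 0.46 in mtYAP and by 0.43, 0.13 and −0.04 in YAP. In mtYAP 3 of the 13 regulators passed 0.5 and 2 passed −0.5, Bach1 and the dim Rbx1 (−0.66), named after its value was seen, where 11.6% of all genes passed 0.5 and 11.5% passed −0.5. Among genes at a level of 6 on at least 1 array, 20.6% passed 0.5 and 20.6% passed −0.5.

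A wider list of 29 other NRF2 targets, 26 of them measured and 20 at a level of 6 on at least 1 array, was also split. In mtYAP 3 genes stood above 1 and 5 below −1, with a median of −0.145, and in YAP 4 stood above 1 and none below −1, with a median of 0.19. Of all genes, 3.77% stood above 1 and 4.06% below −1 in mtYAP, and 1.36% and 1.26% in YAP. Among genes at a level of 6 on at least 1 array these shares were 7.66% and 8.22% in mtYAP, and 2.72% and 2.3% in YAP. Abcc4, the pump MRP4, read 7.12 in mtYAP, 7.24 in YAP and 5.21 in control, so both lines were high, by 1.91 (3.76-fold) and 2.03 (4.08-fold). Its single probe set lay under 6 in control and reached that level only in the YAP lines, so the size of these differences is uncertain. The others above 1 in mtYAP, named after their values were seen, were Gclc, the catalytic subunit of the enzyme that starts glutathione synthesis, at 1.145 in mtYAP and 1.25 in YAP, and Slc7a11, the cystine importer, at 1.93 and 1.51 but under 6 on every array. Ephx1, microsomal epoxide hydrolase, joined them in YAP, at 1.30, with 0.65 in mtYAP.

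Those below −1 in mtYAP use glutathione or reduce lipid products, but other glutathione transferases of the list did not pass that limit. Gstp1 stood at −0.47 in mtYAP and Gsta3, under 6 on every array, at −0.05, both named after their values were seen. Gstm1, a glutathione transferase, had mean levels of 6.75 in mtYAP, 8.22 in YAP and 8.465 in control, a difference of −1.71 (0.305-fold) in mtYAP and −0.245 in YAP. Its 4 probe sets ranged over −2.47 to −0.58 in mtYAP, and the family is one of near-identical copies, so which member was read is uncertain. Ptgr1, a reductase of prostaglandins and leukotrienes, read 9.37 in mtYAP, 10.58 in YAP and 10.78 in control, a difference of −1.41 in mtYAP and −0.20 in YAP. Mgst1, a membrane-bound glutathione transferase, stood at −1.355 and −0.125, as the mean of a bright probe set (8.55 in mtYAP, 10.65 in YAP and 11.43 in control) and a dim one (2.37, 2.73 and 2.20) that ran at 0.17 in mtYAP. The transferases Gsta4 (−1.09 in mtYAP and 0.09 in YAP) and Gstm2 (−1.18 and −0.66) completed the group and were named after their values were seen. Gstm2 is of the same family as Gstm1, so these may not be separate readings. Over all 26 measured targets, mtYAP minus YAP was below −1 in 4 (1.42% of all genes) and above 1 in none (0.748%). Its median over the targets was −0.345, against 0.025 over all genes. Limited to probe sets at a level of 6 on at least 1 array, the median over genes was −0.05. The shares past 1 and −1 among such genes were not taken for this comparison.

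Of 21 other genes of NADPH production and the pentose phosphate pathway, 14 of them at a level of 6 on at least 1 array, 5 stood above 1 and 2 below −1 in mtYAP (median 0.38), and 4 stood above 1 and none below −1 in YAP (median 0.23). The shares of all genes were 3.77% and 4.06% in mtYAP and 1.36% and 1.26% in YAP. For genes at a level of 6 on at least 1 array they were 7.66% and 8.22% in mtYAP and 2.72% and 2.3% in YAP. Idh1, the cytosolic isocitrate dehydrogenase that makes NADPH, had mean levels of 9.665 in mtYAP, 10.95 in YAP and 11.56 in control, and control was highest in both of its probe sets. The difference was −1.895 (0.269-fold) in mtYAP and −0.61 (0.655-fold) in YAP. H6pd, the NADPH source of the endoplasmic reticulum, stood at −1.46 and −0.40. Among mitochondrial folate enzymes, Mthfd2 had mean levels of 9.825 in mtYAP, 9.015 in YAP and 7.50 in control, 5.01-fold and 2.86-fold over control. Aldh1l2, which makes NADPH while oxidizing formyl-folate, stood at 1.80 and 1.38, and Mthfd1l, which releases formate and makes no NADPH itself, at 1.60 and 1.71, while their relative Mthfd2l stood at 0.205 and 0.16. Rpia, ribose-phosphate isomerase, stood at 1.03 and 0.37, and the malic enzyme Me3 at 1.21 and 1.09 under a level of 6, and these, Mthfd2l and H6pd were named after their values were seen. Pgls, the enzyme between G6pdx and Pgd, read 9.33 in mtYAP, 9.46 in YAP and 9.34 in control, also named afterwards.

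Of 28 other genes of peroxide and superoxide defence, 26 were measured and 21 reached 6. In mtYAP 1 stood above 1 and 3 below −1, with 11 below −0.5, and in YAP none stood above 1 and 1 below −1. Of all genes, 3.77% stood above 1, 4.06% below −1 and 11.5% below −0.5 in mtYAP (20.6% below −0.5 among genes at a level of 6), and 1.36% stood above 1 and 1.26% below −1 in YAP. Past 1 and −1, the shares among genes at a level of 6 were 7.66% and 8.22% in mtYAP and 2.72% and 2.3% in YAP. Txnrd3, a relative of Txnrd1, had mean levels of 7.36 in mtYAP, 6.90 in YAP and 6.33 in control, differences of 1.03 and 0.57. Glrx, a glutaredoxin that uses glutathione, had mean levels of 6.54 in mtYAP, 7.62 in YAP and 8.33 in control, differences of −1.79 (0.289-fold) and −0.71 (0.611-fold). Sesn3, a sestrin linked to FOXO factors, was low in both lines, at −1.97 and −1.64. Its mean levels were 5.755 in mtYAP, 6.085 in YAP and 7.725 in control. The dimmer Sesn3 probe set lay under 6 in mtYAP (5.25) and YAP (5.51), so the size of these differences is uncertain. Txnip, which binds and inhibits thioredoxin, had mean levels of 9.505 in mtYAP, 10.74 in YAP and 10.675 in control, so that mtYAP alone was low, at −1.17, with YAP at 0.065. The median of the list was −0.10 in mtYAP and −0.04 in YAP.

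**Figure D4:**
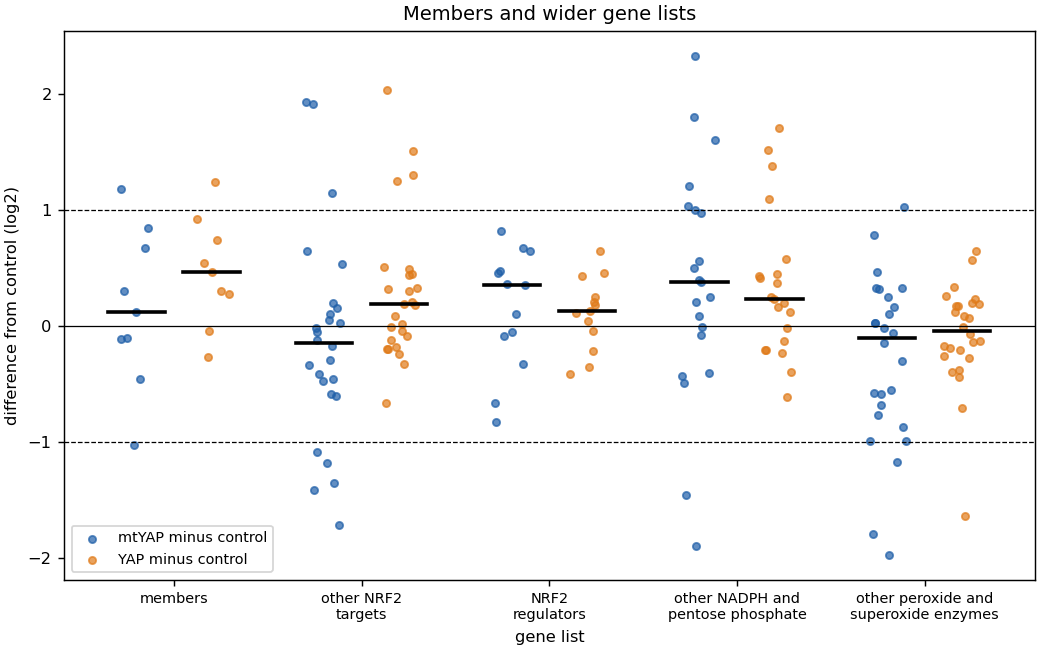
Difference from control (log2, vertical axis) of each measured gene in the 9 members and 4 wider lists (horizontal axis), in mtYAP (blue) and YAP (orange), with black bars at the list medians and dashed lines at −1 and 1. The sideways spread within a list has no meaning. The other NRF2 targets have a median of −0.145 in mtYAP, with 5 genes below −1, and of 0.19 in YAP, with none.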

How the data were processed

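Total RNA of NIH3T3 cells, 1 sample in each of 3 conditions, was labelled as biotinylated cRNA and put on Affymetrix whole-genome mouse arrays. The deposited values are log2 levels per probe set that the authors obtained by background subtraction and normalization with RMA in R. The submitters' notes name RMA and affy. Not given in the sources used here are their versions and whether other arrays were normalized alongside. The values carry 2 decimals and were used as they stand. RMA gives all arrays a like distribution, so a shift of most genes would not be seen.

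Of 45037 probe sets, 34945 name 1 gene, 932 several and 9160 none. Probe sets naming the same gene alone were averaged, and the level in control was subtracted from that in mtYAP and in YAP, and the level in YAP from that in mtYAP. Samples were grouped by their genotype labels. There is no replicate, so no test was run. Counts at log2 limits of 1 and 0.5 are given beside the share of all genes past the same limit. For mtYAP minus YAP, no share was taken among genes at a level of 6 alone. The number of arrays limits the precision. Members and wider lists were chosen with earlier results of these data known. Named genes are all members, up to 4 genes per wider list with the largest difference in mtYAP among those at a level of 6 or more, and Nfe2l2, Keap1, Bach1 and the small MAF genes. Alternatives were the brightest probe set, the median of probe sets, probe sets of the _at kind alone, inclusion of probe sets that name several genes, a minimum level of 6, removal of the median difference or of a loess on level with a span of 0.3, and other units of counting. The counting was tested on simulated data. Python 3.11.15 with numpy 2.4.6, pandas 2.3.3, statsmodels 0.14.6 and matplotlib 3.10.9 was used.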

Additional observations from a re-analysis of the deposited data

Results flagged for a closer look

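Of the members and the other genes named by the rule, 3 lay on opposite sides of control in the YAP lines with at least 1 difference past 0.5, a pattern that was not tested because each line has 1 array. Pgd stood at −1.025 in mtYAP and 0.30 in YAP, in the same directions in all 4 probe sets. Nqo1 stood at −0.11 in mtYAP and 0.92 in YAP, on a single probe set that reached a level of 6 only in YAP. Txnip had differences of −1.17 in mtYAP and 0.065 in YAP. The small value in YAP had opposite signs in its probe sets (0.15 and −0.02).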

How the results depend on the processing

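Of 180 alternative values of single members, 174 moved by less than 0.2 on the log2 scale, a tolerance set in place of a replicate spread, and the other 6 concerned Txnrd1 and Srxn1. Part of this was fixed in advance. Keeping probe sets of several genes changed no member, and removing the median difference shifts all genes of a comparison alike. Nqo1, Hmox1 and Taldo1 have 1 probe set each, so joining probe sets in another way could not change them. Removing the median difference or the loess left every count and median of the members and wider lists against control within the limits used (1.5 times for counts and 0.2 for medians). How probe sets were joined mattered more, and the cause was not tested unless named. With the brightest probe set, 2 members lay above 1 and 2 below −0.5 in mtYAP, the second being Srxn1 at −0.74. Among the wider lists this setting gave 0 regulators above 0.5 and 2 other NRF2 targets below −0.5 in YAP, 4 NADPH and pentose phosphate genes below −0.5 in mtYAP, and, among peroxide and superoxide enzymes, 2 above 1 and 5 below −1 in mtYAP and 4 below −0.5 in YAP. With the median of the probe sets, 0 members lay below −1 and 2 below −0.5 in mtYAP, 4 NADPH and pentose phosphate genes lay below −0.5 and 0 peroxide and superoxide enzymes above 1. Without the _s_at, _x_at and _a_at kinds, Pgd, Txnrd1 and Taldo1 have no value, so 0 members lay below −1 or −0.5 in mtYAP, 1 lay below −1 and 1 below −0.5 in mtYAP minus YAP, and of the NADPH and pentose phosphate genes 1 lay below −1 and 1 below −0.5 in mtYAP and 0 below −0.5 in YAP. There Mgst1 turned to 0.17 in mtYAP, which is its dim probe set alone. Limited to probe sets at a level of 6, the medians in mtYAP were −0.37 for other NRF2 targets and 0.64 for NADPH and pentose phosphate genes, with 5 of that second list below −0.5, 2 members and 1 regulator below −0.5 in mtYAP, and 2 other targets below −0.5 and 0 regulators above 0.5 in YAP. Keeping probe sets of several genes left 1 regulator below −0.5 in mtYAP. With any probe set passing, 2 members lay above 1 and 2 below −0.5 in mtYAP. Counted singly, 3 of the 21 probe sets lay above 1, 3 below −1, 7 above 0.5 and 6 below −0.5 in mtYAP, and 2 above 1 and 8 above 0.5 in YAP. No paired analysis was possible because each group has 1 array. Signals under a level of 6, as for Nqo1 in mtYAP and control and for Abcc4 in control, limit the size of a difference.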
